A study of Mus musculus with 2 samples.

Results

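The genes that fold, modify, export, trim and crosslink collagen were followed across the cells of the mouse periosteum. The list holds 36 genes, taken by symbol from the 31253 genes listed in each of the libraries, and was drawn up by what the proteins do: a chaperone, the prolyl and lysyl hydroxylases, the prolyl isomerases, parts of the export route, the propeptide proteinases with their enhancers, and the lysyl oxidases. Cells came from the periosteum of femurs and tibias of mice aged 8 weeks, were sorted for the Ai9 reporter and were captured on the BD Rhapsody system. There were 2 libraries, 1 per genotype: Prx1 Cre; Ai9/+, called control here, and Prx1 Cre; Ai9/+; Piezo1 fl/fl. Both carried the Prx1-driven Cre, which is active in limb mesenchyme, and the Ai9 reporter, so that the floxed Piezo1 allele was the labelled difference. The number of mice behind each library is not given.

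Fibrillar collagen is made in the endoplasmic reticulum, where prolines are hydroxylated, lysines are hydroxylated and the chains are held by a dedicated chaperone until the helix has formed. The procollagen leaves in enlarged COPII carriers, loses its propeptides to secreted proteinases and is joined into fibrils by lysyl oxidases. Mutations in many of these genes cause brittle bone disease or skin fragility.

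The control library held 28030299 UMIs over 6118 barcodes and the Piezo1 fl/fl library 32337308 UMIs over 7469 barcodes. After filters on genes per cell and mitochondrial UMIs, and with doublets removed, 4418 and 5084 cells remained, with a median of 4812.5 and 4593 UMIs. Scrublet marked 46 of 5551 scored control barcodes and 67 of 6784 Piezo1 fl/fl barcodes as doublets. The libraries shared 50 barcode sequences. Each molecule was counted by a tag at its 3′ end, so splice forms were not resolved. Levels are UMIs summed over the cells of a type over all UMIs of that type, on the usual CPM scale, and intervals are exact 95% intervals that cover counting error only. With 1 library per genotype there was no test, and genotype and library cannot be told apart.

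Cell types were set from counts of marker genes, none of them a list member or a collagen, and carry the ending -like. In the control library 464 cells were SSPC-1-like cells, led by Gpha2, Egfl6 and Dio2, and 501 were SSPC-2-like, led by Lrrc15, Tnn and Postn. These names stand for the skeletal stem and progenitor populations of the study. There were 479 and 270 of them in the Piezo1 fl/fl library. Tendon-like cells, led by Kera, Chodl and Thbs4 in the control library, numbered 299 and 484, and they had Angptl7, a SSPC-1-like marker, among their 10 leading genes in both libraries. Osteoblast-like cells, led by Car3, Bglap and Ifitm5, numbered 33 in the control library and 7 in the Piezo1 fl/fl library, the latter too few to give a value. Preosteoblast-like cells, 233 and 194, are the end of the SSPC-2-like range with Ibsp above 20 per 10000 UMIs: 157 of the 734 control cells in that range and 60 of 464 Piezo1 fl/fl cells lay within 2-fold of that level. The median control preosteoblast-like cell had 317 UMIs of SSPC-2-like markers and 11.2 of osteoblast-like markers per 10000, and the median SSPC-2-like cell 341 and 6.18. The marker counts left 17.4% of control and 24.0% of Piezo1 fl/fl cells unassigned.

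Piezo1 itself was lower in the Piezo1 fl/fl library. It had 78 UMIs over the 8 stromal types of the control library, 4.40 CPM [3.48, 5.49], and 21 UMIs in the Piezo1 fl/fl library, 1.20 CPM [0.741, 1.83]. In endothelial-like cells the level was 30.1 and 17.5 CPM, and in macrophage-like cells 5.79 and 5.48 CPM. The deleted exons are not given in the sources used here, and tags that lie outside them would not show the deletion.

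The list as a whole was most abundant in the cells richest in Col1a1, but it did not keep pace with Col1a1. In the control library the 36 genes summed to 13352 CPM in osteoblast-like cells, 12242 in SSPC-2-like, 11946 in tendon-like and 9132 in SSPC-1-like cells. They summed to 2718 CPM in endothelial-like and 1417 in macrophage-like cells. Col1a1 had 157290 CPM in osteoblast-like, 90272 in SSPC-2-like, 57094 in tendon-like and 37717 in SSPC-1-like cells. Preosteoblast-like cells came next to osteoblast-like cells in Col1a1, at 101479 CPM. Their list sum of 11888.5 CPM nevertheless lay below those of SSPC-2-like and tendon-like cells. Per 1000 Col1a1 UMIs the list therefore held 84.9 UMIs in osteoblast-like cells, 136 in SSPC-2-like, 209 in tendon-like, 242 in SSPC-1-like cells and 672 in Pi16 fibroblast-like cells. Piezo1 fl/fl cells gave 171 in SSPC-2-like, 225 in tendon-like, 289 in SSPC-1-like cells and 499 in Pi16 fibroblast-like cells, the same order among these types.

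**Figure D1:**
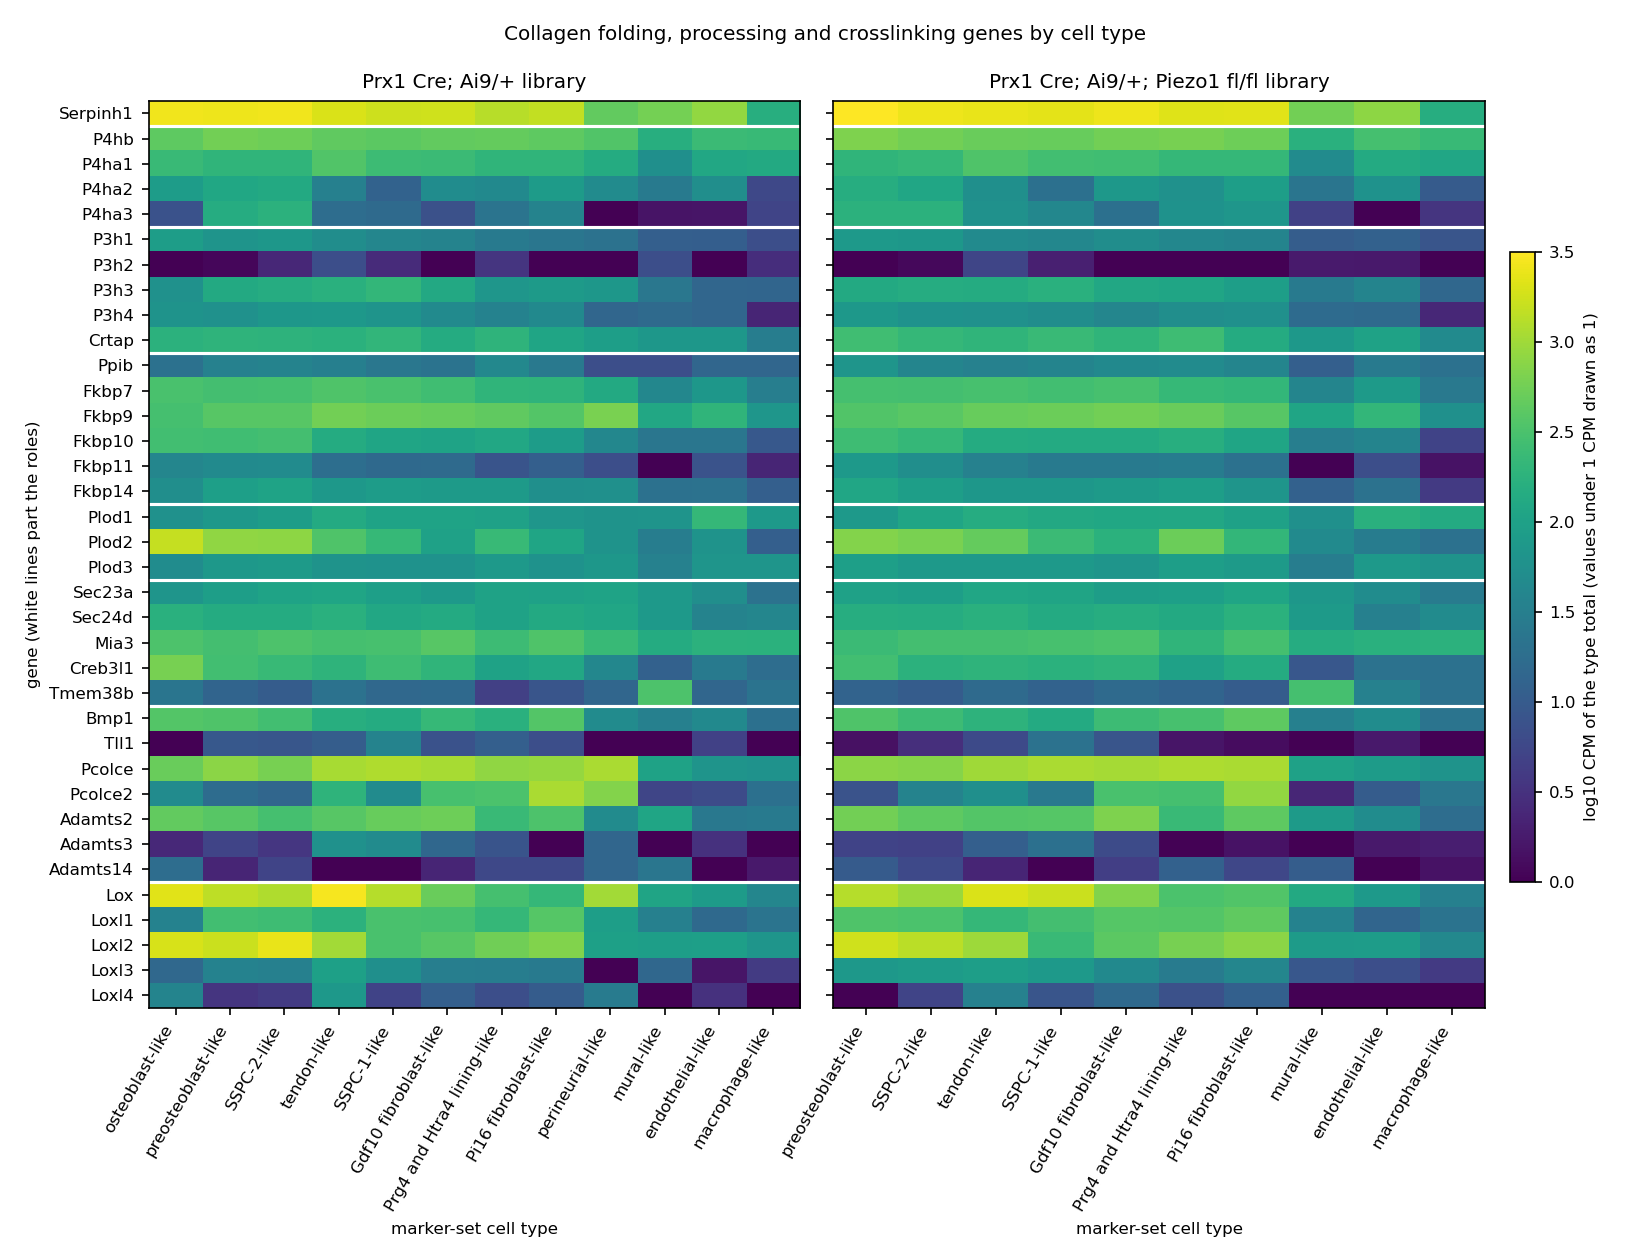
Level of the 36 genes (log10 CPM of the type total, color) in each cell type with at least 20 cells, ordered by Col1a1, in the control (left) and Piezo1 fl/fl (right) library; other blood-like cells of the Piezo1 fl/fl library are not drawn. Serpinh1 was the most abundant member in control osteoblast-like cells at 2688 CPM, and Tmem38b was highest in mural-like cells at 336 CPM.

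SSPC-2-like and SSPC-1-like cells differed by 2-fold or more in some members. With collagens kept in the type total, none of these was in the chaperone, prolyl 3-hydroxylation or export roles. In the control library 7 of the 35 members with at least 20 UMIs over both types were at least 2-fold higher in SSPC-2-like cells (P4ha2, P4ha3, Fkbp10, Fkbp11, Plod2, Adamts14 and Loxl2), against 5.83% of 10608 genes. Another 3 (Tll1, Pcolce2 and Adamts3) were at least 2-fold lower, against 15.5% of genes. Of these, Pcolce2 did not reach 2-fold with types set by Louvain clusters (log2 -0.89). In the Piezo1 fl/fl library 4 of 34 were at least 2-fold higher (P4ha2, P4ha3, Plod2 and Loxl2), against 5.94% of 9762 genes, and 2 (Tll1 and Adamts3) at least 2-fold lower, against 7.5%. The median log2 ratio of the members was 0.13 in the control library, beside -0.24 over all genes, and 0.08 beside -0.05 in the Piezo1 fl/fl library. Where a pair of values is given without types in the paragraphs that follow, SSPC-2-like cells come first.

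Collagens took 22.1% of the UMIs of control SSPC-2-like cells and 9.26% of those of SSPC-1-like cells, which lowers every other gene's share. With collagens left out of the total, each log2 ratio is higher by 0.22 in the control library and by 0.13 in the Piezo1 fl/fl library. That turned Creb3l1, Crtap, Fkbp7 and Lox from lower to higher in control SSPC-2-like cells, and Crtap, Plod3 and Mia3 in the Piezo1 fl/fl library. It also took P3h1 (log2 1.04) and Bmp1 (log2 1.13) past 2-fold in the control library, and Fkbp11 (log2 1.08) in the Piezo1 fl/fl library.

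**Figure D2:**
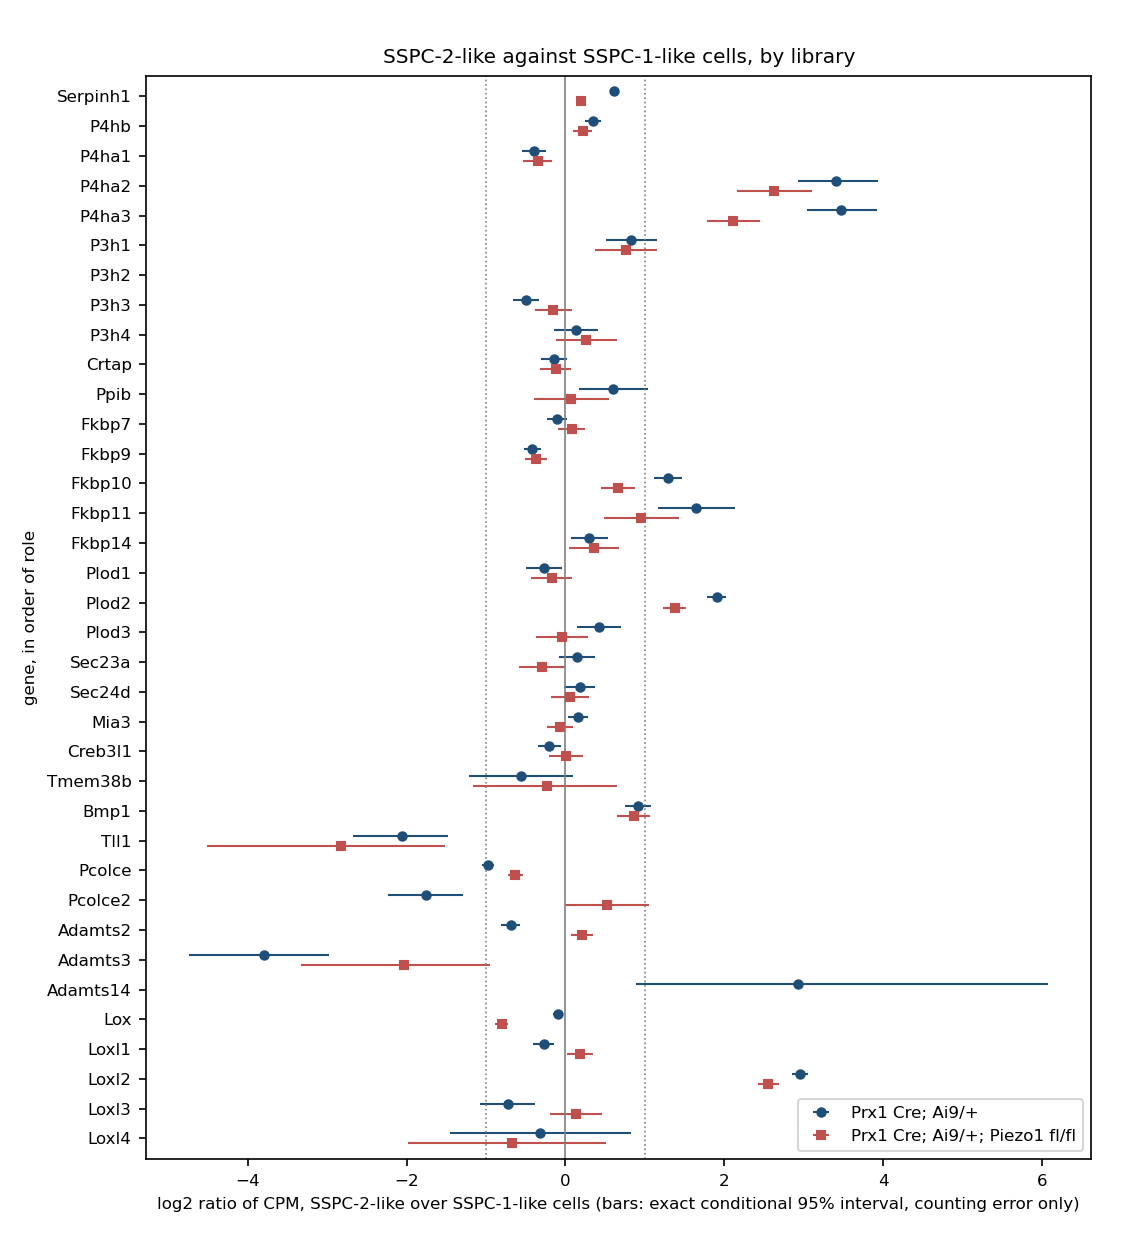
Log2 ratio of CPM, SSPC-2-like over SSPC-1-like cells, for each member with at least 20 UMIs over both types, in the control (blue circles) and Piezo1 fl/fl (red squares) library, with exact conditional 95% intervals; dotted lines mark 2-fold. P4ha2, P4ha3, Plod2 and Loxl2 lie beyond 2-fold on the higher side in both libraries, whereas Pcolce2, Adamts2 and Loxl1 have intervals on opposite sides of 0.

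Serpinh1 encodes the chaperone dedicated to procollagen. It had 2644 CPM in control SSPC-2-like cells, 1722 in SSPC-1-like cells and 2688 in osteoblast-like cells, a log2 ratio between SSPC-2-like and SSPC-1-like cells of 0.62 [0.57, 0.67]. The Piezo1 fl/fl levels were 2608 and 2273 CPM, a ratio of 0.20 [0.14, 0.26]. The smaller ratio went with a higher level in Piezo1 fl/fl SSPC-1-like cells, while the SSPC-2-like levels were alike.

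The prolyl 4-hydroxylase, which makes the hydroxyproline that stabilizes the collagen helix, pairs 1 of 3 catalytic subunits with P4hb. The subunits parted by cell type. P4ha1 was lower in SSPC-2-like than in SSPC-1-like cells, at 194 and 254.5 CPM in the control library (log2 -0.39 [-0.54, -0.24]) and 215 and 274 in the Piezo1 fl/fl library. P4ha2 was 10.7-fold higher in control SSPC-2-like cells (134 and 12.5 CPM, log2 3.41 [2.93, 3.94]) and 6.15-fold higher in the Piezo1 fl/fl library (119 and 19.3 CPM). P4ha3 had 179.8 and 16.3 CPM in the control library (log2 3.47 [3.04, 3.92]) and 179 and 41.4 in the Piezo1 fl/fl library (log2 2.11 [1.78, 2.45]), the role's largest and P4ha1 its smallest control ratio. With types set by Louvain clusters the control log2 ratios were smaller, 2.59 for P4ha2 and 2.28 for P4ha3, and P4ha2 was then the larger. P4ha2 was also the larger with 500 to 6000 genes per cell, mitochondrial UMIs under 10% or a larger margin between types (3.64 and 3.51). After thinning to 2500 UMIs P4ha3 had 4.42 and P4ha2 3.34. The shared subunit P4hb, also a disulfide isomerase, varied less, with 529 and 415 CPM in the control and 573 and 492 in the Piezo1 fl/fl library.

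As a share of the 3 catalytic subunits, P4ha1 made up 89.8% [87.6, 91.8] of the UMIs in control SSPC-1-like cells and 87.4% [84.8, 89.6] in tendon-like cells, but 38.3% [36.0, 40.5] in SSPC-2-like cells. There P4ha2 held 26.3% and P4ha3 35.4%. Osteoblast-like cells kept P4ha2, at 26.4% and 86.4 CPM, whereas P4ha3 had 3 UMIs, 2.33% [0.482, 6.65] and 7.62 CPM. P4ha1 of the Piezo1 fl/fl library held 81.9% in SSPC-1-like cells and 42.0% in SSPC-2-like cells, with P4ha3 at 12.4% in SSPC-1-like cells and 34.9% in SSPC-2-like cells. The smaller part of P4ha1 in SSPC-2-like cells was thus present in both libraries.

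P4ha3 had a UMI in 57.9% of control SSPC-2-like cells and 7.33% of SSPC-1-like cells, beside 1.57% of macrophage-like cells, which serve here as a measure of free RNA. Median depths were 6037, 5609 and 3770 UMIs per cell. With every cell thinned to 2500 UMIs the shares were 34.1%, 2.05% and 0.671%. For the Piezo1 fl/fl library the unthinned shares of cells with P4ha3 were 61.1%, 14.8% and 1.48%, at median depths of 5588.5, 4391 and 4012, and the thinned ones 34.4%, 7.39% and 0.302%.

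**Figure D3:**
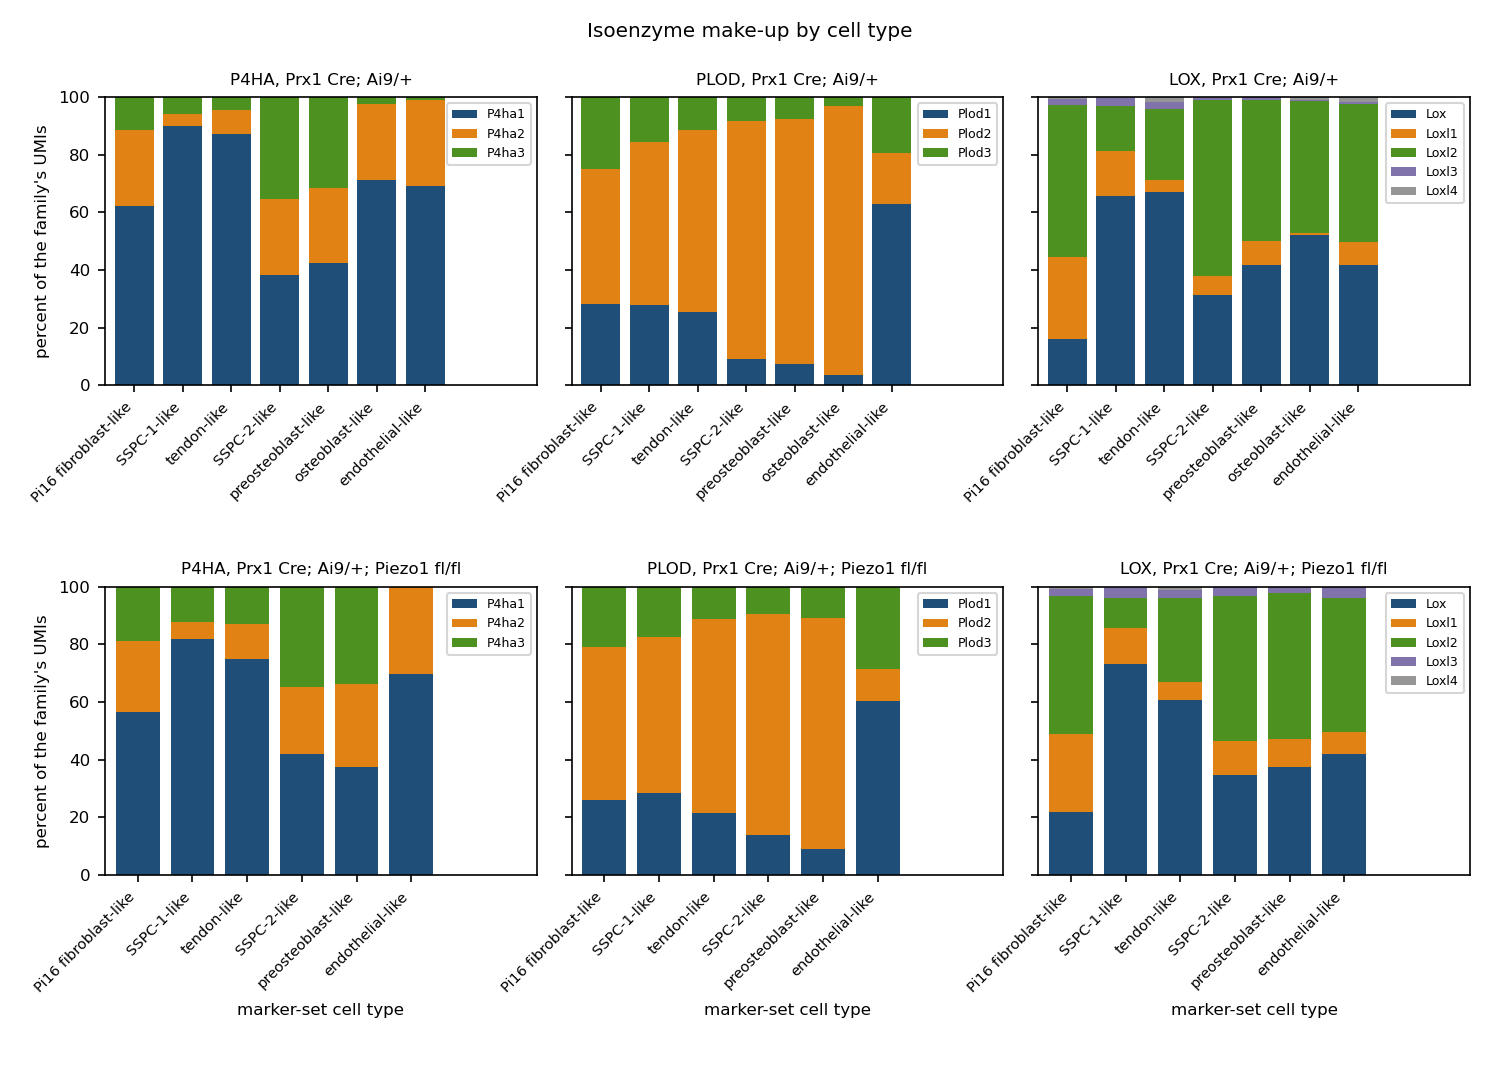
Percent of a family's UMIs held by each catalytic subunit of prolyl 4-hydroxylase (P4HA), each lysyl hydroxylase (PLOD) and each lysyl oxidase (LOX) in selected cell types of the control (top) and Piezo1 fl/fl (bottom) library. P4ha1 held 89.8% in control SSPC-1-like cells and 38.3% in SSPC-2-like cells, Plod2 56.6% and 82.8%, and Loxl2 15.7% and 61.3%.

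Prolyl 3-hydroxylation is carried out by a complex of P3h1, Crtap and the isomerase Ppib, with P3h3 and P3h4 joining lysyl hydroxylase 1 in another complex. P3h1 was the role's highest ratio, with 72.0 and 40.7 CPM in control SSPC-2-like and SSPC-1-like cells (log2 0.82 [0.51, 1.15]) and 71.2 and 41.8 in the Piezo1 fl/fl library. It reached 88.9 CPM in osteoblast-like cells. P3h3 ran the other way in the control library, with 209 CPM in SSPC-1-like cells, 149 in SSPC-2-like and 58.4 in osteoblast-like cells, and its interval held 0 in the Piezo1 fl/fl library (148 and 164 CPM). P3h1 and P3h3 thus differed in opposite directions along the SSPC-1-like cells, SSPC-2-like and osteoblast-like cells of the control library: P3h1 made up 12.8%, 24.5% and 42.2% of the UMIs of the P3h genes and P3h3 65.9%, 50.5% and 27.7%. Crtap had 181 and 199.6 CPM in control and 215 and 234 in Piezo1 fl/fl cells. P3h4 had 71.2 and 65.1 CPM, and 61.8 and 51.5 in Piezo1 fl/fl cells, with intervals that held 0 for both genes in each library.

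Prolyl isomerases speed the folding of proline-rich chains. Fkbp10, whose loss causes a recessive brittle bone disease, was 2.45-fold higher in control SSPC-2-like than in SSPC-1-like cells (282 and 115 CPM, log2 1.29 [1.11, 1.47]), stood at 279 CPM in osteoblast-like cells and was 1.58-fold higher in the Piezo1 fl/fl library (216 and 137 CPM). Fkbp11 had the role's largest ratio, at 48.6 and 15.6 CPM in the control library (log2 1.64 [1.16, 2.14]) and 52.9 and 27.4 in the Piezo1 fl/fl library. Fkbp9 had the smallest, being lower in SSPC-2-like cells of both libraries, at 394 and 525 CPM (log2 -0.42 [-0.52, -0.31]) and 397 and 513. The FKBP members therefore did not share a direction. Fkbp14 was slightly higher in SSPC-2-like cells (107 and 87.1 CPM, and 92.4 and 72.0 in Piezo1 fl/fl cells), whereas Fkbp7 had 291 and 313 CPM in control and 287 and 272 in Piezo1 fl/fl cells, with 0 inside both intervals.

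Lysyl hydroxylases prepare lysines for crosslinks and sugars, and Plod2 acts on the telopeptide lysines that give the stable crosslinks of bone. In the control library Plod2 had 218 CPM in SSPC-1-like cells, 342 in tendon-like, 816 in SSPC-2-like and 1545 in osteoblast-like cells, the order of their Col1a1 levels. The log2 ratio to SSPC-1-like cells was 1.90 [1.78, 2.03] in SSPC-2-like and 2.82 [2.66, 2.99] in osteoblast-like cells. Its Piezo1 fl/fl levels were 244 CPM in SSPC-1-like cells and 633 in SSPC-2-like cells (log2 1.38 [1.23, 1.52]). Its relatives showed no such gradient. Plod1 had the role's smallest control ratio, with 89.2 and 107 CPM in SSPC-2-like and SSPC-1-like cells (log2 -0.26 [-0.49, -0.04]) and 114 and 129 in Piezo1 fl/fl cells, and was highest in endothelial-like cells at 217 CPM; its sign turned under a thinning to equal depth. Plod3, which also adds glucose to hydroxylysine, had 80.5 and 59.98 CPM in control and 76.5 and 78.4 in Piezo1 fl/fl cells. Plod2 held 56.6% of the family's UMIs in control SSPC-1-like cells, 82.8% in SSPC-2-like and 93.4% in osteoblast-like cells but 17.9% in endothelial-like cells, where Plod1 held 62.8%. For Plod2 the Piezo1 fl/fl shares were 54.1% in SSPC-1-like cells, 76.9% in SSPC-2-like and 10.8% in endothelial-like cells.

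The export genes were nearly level between the progenitor types. Sec23a and Sec24d, coat proteins of COPII carriers, had 106 and 141 CPM in control SSPC-2-like cells and 95.6 and 124 in SSPC-1-like cells, with intervals that held 0. Their Piezo1 fl/fl levels were 90.6 and 145 CPM, against 111 and 139. Mia3, the receptor that loads procollagen into these carriers, had 337 and 301 CPM (log2 0.16 [0.04, 0.29]), and 288 and 302 in Piezo1 fl/fl cells. The role's extremes in the control library were Sec24d (log2 0.18) and Tmem38b, an endoplasmic reticulum potassium channel (log2 -0.56 [-1.22, 0.10]). Creb3l1, a transcription factor of collagen-making osteoblasts, had 225 CPM in control SSPC-2-like cells and 259 in SSPC-1-like cells (log2 -0.20 [-0.35, -0.06], but 0.02 without collagens in the total and 0.09 with Louvain types), and 602 in osteoblast-like cells, log2 1.22 [1.00, 1.43] over SSPC-1-like cells. Piezo1 fl/fl cells had 175 and 173 CPM of Creb3l1 (log2 0.01 [-0.21, 0.23], and 0.39 with Louvain types).

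Most members that trim propeptides were lower in SSPC-2-like cells of the control library. Bmp1, the proteinase that removes the C-propeptide, and Adamts14 were the exceptions, Bmp1 with 272 and 144 CPM (log2 0.92 [0.75, 1.08]) and 371 in osteoblast-like cells. Piezo1 fl/fl cells had 252 and 139 CPM. Its enhancer Pcolce went the other way, with 609 CPM in SSPC-2-like, 1197 in SSPC-1-like cells and 503 in osteoblast-like control cells (log2 -0.97 [-1.05, -0.90] between SSPC-2-like and SSPC-1-like) and 731 and 1130 in the Piezo1 fl/fl library. Proteinase and enhancer thus ran in opposite directions in both libraries. Adamts3, an N-propeptidase, had the role's smallest control ratio, with 13 and 145 UMIs, 3.55 and 49.1 CPM (log2 -3.79 [-4.74, -2.97]), and 4.71 and 19.3 CPM in the Piezo1 fl/fl library. Adamts14, its relative, had the largest, on 19 and 2 UMIs (log2 2.93 [0.88, 6.08]). Adamts2, the main N-propeptidase of skin, had 296 and 479 CPM in the control library (log2 -0.69 [-0.81, -0.58]) but 431 and 373 in the Piezo1 fl/fl library (log2 0.21 [0.07, 0.35]).

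The other Pcolce gene, Pcolce2, lies outside the level rule for named members and is given here after its values were seen. Among types with at least 20 cells Pcolce2 was highest in Pi16 fibroblast-like cells, with 1139 CPM in control and 853 in Piezo1 fl/fl cells, followed by control perineurial-like cells at 718 and Piezo1 fl/fl Gdf10 fibroblast-like cells at 309.7, and it was among the leading genes of Piezo1 fl/fl Pi16 fibroblast-like cells. In SSPC-2-like and SSPC-1-like cells it had 14.5 and 48.8 CPM in the control library and 37.1 and 25.7 in the Piezo1 fl/fl library. That value rested on few cells: 63 UMIs lay in 19 of 270 cells, 57.1% of them in 5 cells. With types set by Louvain clusters the Piezo1 fl/fl log2 ratio between the types was -1.67, and with a larger margin between types -1.46, in place of 0.53.

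Lysyl oxidases start the crosslinks between collagen molecules. Loxl2 separated the progenitor types most among the family: it had 2399 CPM in control SSPC-2-like cells and 310 in SSPC-1-like cells (7.74-fold, log2 2.95 [2.85, 3.05]) and 1376 and 234 in the Piezo1 fl/fl library (5.89-fold, log2 2.56 [2.43, 2.69]). With Louvain types the control log2 ratio of Loxl2 was 2.28. It stood at 1966 CPM in osteoblast-like and 1027 in tendon-like control cells. Lox was highest in tendon-like cells, at 2814 CPM in control and 2034 in Piezo1 fl/fl cells, and reached 2225 in osteoblast-like cells. Between SSPC-2-like and SSPC-1-like cells Lox had 1220 and 1299 CPM in the control library (log2 -0.09 [-0.15, -0.03], and 0.13 without collagens in the total) and 941 and 1639 in the Piezo1 fl/fl library (log2 -0.80 [-0.88, -0.72]). The leading oxidase thus differed by type: Lox held 65.7% of the family's UMIs in control SSPC-1-like cells and 67.2% in tendon-like cells, whereas Loxl2 held 61.3% in SSPC-2-like and 52.7% in Pi16 fibroblast-like cells. In the Piezo1 fl/fl library Lox held 73.1% in SSPC-1-like cells and Loxl2 50.4% in SSPC-2-like cells.

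Loxl1, which also serves elastic fibers, had 257 and 310 CPM in control SSPC-2-like and SSPC-1-like cells (log2 -0.27 [-0.40, -0.14]), 35.6 in osteoblast-like cells, and 323 and 285 in the Piezo1 fl/fl library (log2 0.18 [0.02, 0.34]). Loxl3 had the role's smallest control ratio, with 33.0 and 54.6 CPM (log2 -0.73 [-1.08, -0.38]), and 82.9 and 75.6 in the Piezo1 fl/fl library, where the sign turned with Louvain types (log2 -0.31) and with the larger margin (log2 -0.05). Loxl4 had 15 and 15 UMIs in control and 9 and 21 in Piezo1 fl/fl cells, with 0 inside both intervals (log2 -0.31 [-1.45, 0.82] and -0.67 [-1.98, 0.51]).

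The other members, P3h2, Ppib, Fkbp11, Tmem38b, Tll1, Pcolce2, Adamts3, Adamts14 and Loxl4, stayed under 50 CPM in SSPC-1-like cells, SSPC-2-like and osteoblast-like control cells, and their highest level in these types ranged from 2.71 to 49.1 CPM. Of these 9, P3h2 was not compared between SSPC-2-like and SSPC-1-like cells, with 9 and 8 UMIs in the control library. Tll1, a relative of Bmp1, was lower in SSPC-2-like cells, on 32 and 107 UMIs. It had 0 UMIs in osteoblast-like cells, where a limit of 3 counts corresponds to 7.62 CPM, and 36.3 CPM in SSPC-1-like cells. Loxl4, chosen after its values were seen, had 72.4 CPM in control tendon-like and 5.08 in SSPC-1-like cells (14.2-fold), and 34.3 and 8.45 in the Piezo1 fl/fl library. Tmem38b, also chosen after its values were seen, was highest in mural-like cells, at 336 CPM in control and 296 in Piezo1 fl/fl cells, against 15.2 and 12.5 in SSPC-1-like cells. Ppib, the isomerase of the P3h1 complex, had 24.1 and 36.6 CPM in control SSPC-1-like cells and SSPC-2-like cells.

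Osteoblast-like cells, compared in the control library alone, carried some of these differences further and lacked others. Against SSPC-1-like cells 9 of 34 members were at least 2-fold higher (P4ha2, P3h1, Fkbp10, Fkbp11, Plod2, Creb3l1, Bmp1, Loxl2 and Loxl4), beside 5.94% of 9486 genes, and 6 at least 2-fold lower (P3h3, Tll1, Pcolce, Adamts3, Loxl1 and Loxl3), beside 30.1%. After thinning, P3h1 (log2 0.70) left the higher list, P3h4 (log2 1.07) joined it, and Fkbp11 and Loxl4 were not compared. Loxl3 (log2 -0.59) then left the lower list, and Fkbp9, Fkbp14 and Tmem38b joined it (log2 -1.21, -2.05 and -1.78). Against SSPC-2-like cells 5 of 34 were at least 2-fold higher (Creb3l1, Tmem38b, Pcolce2, Adamts14 and Loxl4), beside 6.97% of 9287 genes, and 5 at least 2-fold lower (P4ha3, P3h3, Tll1, Loxl1 and Loxl3), beside 20%. Tmem38b, Adamts14 and Loxl4 had only 22.9, 17.8 and 38.1 CPM in the 33 osteoblast-like cells, so these calls rest on few UMIs. The comparison with SSPC-2-like cells was not repeated after thinning. The Tll1 call against SSPC-2-like cells rests on 0 UMIs with 0.5 UMI added. Read against the limit of 3 counts, it does not reach 2-fold. The median log2 ratio of the members to SSPC-1-like cells was -0.0048, beside -0.46 over all genes, and without collagens in the total every ratio is higher by 0.35. Loxl1 had 35.6 against 310 CPM, log2 -3.12 [-4.00, -2.37], and Pcolce 503 against 1197 CPM, log2 -1.25 [-1.46, -1.04].

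Preosteoblast-like cells of the control library were close to the SSPC-2-like cells they were divided from: 0 of 35 members were at least 2-fold higher, beside 2.04% of 9813 genes, and 1 (Adamts14) at least 2-fold lower, beside 2.7%, with a median log2 ratio of -0.01 beside -0.03 over all genes. For the Piezo1 fl/fl library 0 of 32 were at least 2-fold higher, beside 1.97% of 8921 genes, and 1 (Pcolce2) at least 2-fold lower, beside 7.25%, with a median of 0.235 beside -0.127. Tendon-like cells shared some of the higher members with the bone lineage. Against SSPC-1-like cells 6 of 35 members were at least 2-fold higher in the control library (P4ha2, P3h2, Pcolce2, Lox, Loxl2 and Loxl4, of which P4ha2 and Loxl2 were also on the SSPC-2-like and osteoblast-like lists and Loxl4 on the latter), beside 3.5% of 10168 genes, and 1 (Tll1) at least 2-fold lower, beside 7.52%. Of these, P3h2 had only 6.97 against 2.71 CPM, with 0 inside its interval. Lox had 2814 against 1299 CPM (log2 1.12 [1.06, 1.18]) and Loxl2 1027 against 310 (log2 1.73 [1.61, 1.84]). For the Piezo1 fl/fl library the count was 4 of 34 (P4ha2, Pcolce2, Loxl2 and Loxl4), beside 2.94% of 9999 genes. Lox was not among them there, with 2034 against 1639 CPM (log2 0.31 [0.25, 0.37]), whereas Loxl2 had 976 against 234 (log2 2.06 [1.93, 2.19]).

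Across all cell types, the chaperone, Plod2 and Creb3l1 followed Col1a1 by rank. Plod1 (rho -0.02 in control and 0.15 in Piezo1 fl/fl types) and Pcolce (0.22 and 0.47) did not. Over the 12 types with at least 20 cells of the control library, which share that library, 16 of 36 members had a Spearman rho with Col1a1 of at least 0.7, beside 2.75% of 13085 genes. Over the 11 types of the Piezo1 fl/fl library 24 of 36 did, beside 6.52% of 13129 genes. These types fall into 2 sets, however, with Col1a1 at 12266 CPM or more in 8 control types and at 2920 or less in the others. Within the types above 10000 CPM, a division chosen after seeing the data, 8 of 36 members reached 0.7 in the control library (Serpinh1, P3h1, Fkbp10, Fkbp11, Plod2, Sec24d, Creb3l1 and Lox), beside 4.04% of 12250 genes. In the 7 such types of the Piezo1 fl/fl library 5 of 36 did (Serpinh1, P3h1, Fkbp11, Creb3l1 and Loxl2), beside 4.59% of 12093 genes. Serpinh1, P3h1, Fkbp11 and Creb3l1 were on both lists.

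The steepness differed between members. Over all types of the control library the rho was 0.92 for Serpinh1, 0.92 for Plod2, 0.94 for Creb3l1 and 0.78 for P4hb, and the slope of log level on log Col1a1 was 0.445, 0.794, 0.703 and 0.197. A slope under 1 means a level that changes less than Col1a1 does. Slopes in the Piezo1 fl/fl library were 0.630 for Serpinh1, 0.788 for Plod2, 0.741 for Creb3l1 and 0.265 for P4hb. Pcolce, despite its low rho, had slopes of 0.442 in control and 0.715 in Piezo1 fl/fl types, close to or above those of Serpinh1. Within the types above 10000 CPM of Col1a1 the rho was 0.93 and 0.89 for Serpinh1 and 0.86 in each library for Creb3l1. For Plod2 it was 0.88 in control and 0.54 in Piezo1 fl/fl types, and for P4hb 0.31 and 0.29. It was -0.55 and -0.96 for Pcolce and -0.88 and -0.64 for Pcolce2. These values compare types and do not describe cells within a type.

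**Figure D4:**
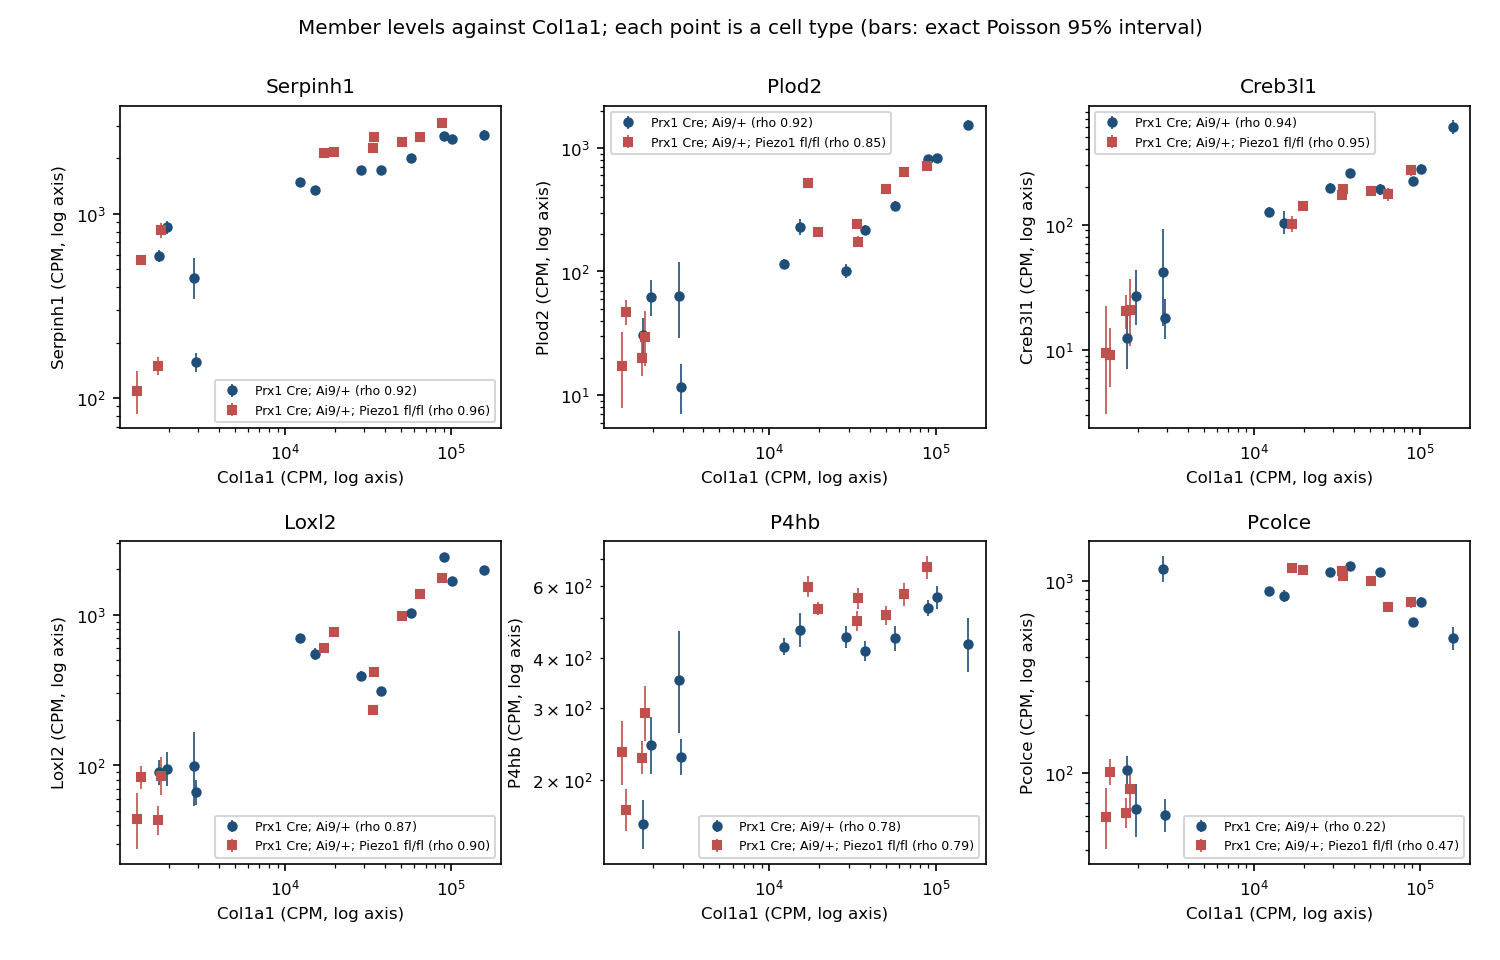
Level of 6 members against Col1a1 (CPM, both axes logarithmic), 1 point per cell type with at least 20 cells, in the control (blue circles) and Piezo1 fl/fl (red squares) library, with exact Poisson 95% intervals. Types above 10000 CPM of Col1a1 stand apart from the others, and among them Serpinh1 and Creb3l1 increase with Col1a1. Pcolce decreases among them in the Piezo1 fl/fl library (rho -0.96) and less regularly in the control library (rho -0.55).

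The relation was also measured inside types, whose cells were sorted by Col1a1 into tertiles and levels scaled like CPM but to the UMIs other than collagens. The members as a set were higher in the highest tertile. Their median log2 ratio to the lowest tertile ranged from 0.30 in control SSPC-2-like to 0.73 in control Pi16 fibroblast-like cells. The same over all genes was not computed. Creb3l1 and Serpinh1 were higher in the highest tertile of each of the 4 types examined in both libraries. In Pi16 fibroblast-like cells P4ha3 had an interval below 0 in control but was at least 2-fold higher in Piezo1 fl/fl cells. Creb3l1 had 173 in the lowest and 416 in the highest tertile of control SSPC-1-like cells (2.41-fold), 222 and 371 of SSPC-2-like cells (1.67-fold), and 110 and 382 of tendon-like cells (3.46-fold). The Piezo1 fl/fl ratios for Creb3l1 were 2.26-fold, 2.41-fold and 2.35-fold, and in Pi16 fibroblast-like cells the ratio was 3.46-fold in control and 2.22-fold in Piezo1 fl/fl cells. Serpinh1 was 1.71-fold, 1.26-fold and 1.39-fold higher in the control library and P4hb 1.12-fold, 1.05-fold and 1.12-fold, while Col1a1 itself was 4.74-fold, 2.52-fold and 4.41-fold higher. Loxl1 differed in direction by type in the control library. Its control log2 ratio was -0.62 [-1.05, -0.19] in tendon-like cells but 0.94 [0.74, 1.14] in Pi16 fibroblast-like cells. The Piezo1 fl/fl log2 ratios of Loxl1 lay below 0 in both types, at -0.85 [-1.16, -0.54] and -0.30 [-0.45, -0.15]. In control SSPC-1-like cells Lox had -0.13 [-0.24, -0.01] and Pcolce2 -2.52 [-3.42, -1.71]. Pcolce and Pcolce2, which had negative rho among the types above 10000 CPM of Col1a1, were higher in the highest tertile of some types. Pcolce was 4.19-fold higher in control and 2.43-fold in Piezo1 fl/fl Pi16 fibroblast-like cells, and Pcolce2 2.08-fold and 2.37-fold in tendon-like cells, but Pcolce2 was lower in the highest tertile of Pi16 fibroblast-like cells (log2 -0.56 [-0.66, -0.46] in control and -0.40 [-0.50, -0.30] in Piezo1 fl/fl cells). Depth differed between the tertiles of control SSPC-1-like cells, with medians of 5003 UMIs in the lowest and 6415.5 in the highest; its part in the ratios was not tested.

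Free RNA bears on how low levels are read. Macrophage-like cells had Col1a1 at 7.74% of the control SSPC-1-like level and 5.05% of the Piezo1 fl/fl one. At or below that share in the control library were P3h3, P3h4, Plod2, Creb3l1, Tll1, Pcolce, Adamts2, Adamts3, Lox, Loxl1, Loxl3 and Loxl4. In the Piezo1 fl/fl library they were P3h4, Fkbp10, Tll1, Adamts2, Lox and Loxl4. Only the macrophage-like UMIs of P3h4, Tll1, Adamts2, Lox and Loxl4, at or below the share in both libraries, are read as background. The other members lay above the share in at least 1 library. How many genes in all lay above it, or reached the 50% used next, was not counted. In the control library P4hb, P4ha1, P3h2, Ppib, Plod1, Plod3, Mia3, Tmem38b and Adamts14 reached at least 50% of the SSPC-1-like level in macrophage-like cells, P4hb with 228 against 415 CPM and Mia3 with 172 against 301. P3h2 and Adamts14 had 5 and 3 UMIs there, too few to read. For the Piezo1 fl/fl library the members at 50% or more were P4ha2, Ppib, Plod1, Plod3, Mia3, Tmem38b, Pcolce2 and Adamts14, and P4hb stood at 46.1%.

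Between genotypes, the members in SSPC-2-like cells differed in both directions, with a median near 0 and a lower sum in the Piezo1 fl/fl library. In SSPC-2-like cells 2 of 35 members were at least 2-fold higher in the Piezo1 fl/fl library (Pcolce2 and Loxl3), beside 6.41% of 9972 genes, and 1 (Tll1) at least 2-fold lower, beside 2.38%. The Pcolce2 call did not hold under each alternative: its log2 ratio was 1.36, but -1.50 with Louvain types, -0.98 with the larger margin and 0.77 with doublets kept. The median log2 ratio was -0.0062, beside 0.13 over all genes, with 17 members above 0, 18 below and 11 above the all-gene median. The summed list had 12242 CPM in control and 11001 in Piezo1 fl/fl cells, or 15712 and 13259 without collagens in the total. Loxl2 had 2399 CPM in control and 1376 in Piezo1 fl/fl cells, and its log2 ratio of -0.80 [-0.87, -0.74] was the lowest of the members named by level. Lox (log2 -0.37 [-0.46, -0.29]), Plod2 (log2 -0.37 [-0.47, -0.27]), Creb3l1 (log2 -0.37 [-0.56, -0.17]) and Fkbp10 (282 and 216 CPM) were lower too, although Creb3l1 had -0.05 with Louvain types, beside a lower Col1a1 (90272 and 64343 CPM, log2 -0.49 [-0.50, -0.48]). Serpinh1 was level (2644 and 2608 CPM, log2 -0.02 [-0.07, 0.03]). Loxl3 had 33.0 and 82.9 CPM (log2 1.33 [0.97, 1.69]) and Adamts2 296 and 431 CPM (log2 0.54 [0.40, 0.68]). Preosteoblast-like cells differed from this in part. There Loxl2 had 1662 CPM in control and 1762 in Piezo1 fl/fl cells (log2 0.08 [0.01, 0.16]), Serpinh1 2560 and 3129 (log2 0.29 [0.23, 0.35]) and Plod2 a log2 ratio of -0.22 [-0.33, -0.10], with 1 of 31 members at least 2-fold higher (Loxl3), beside 2.63% of 8733 genes, and 1 (Pcolce2) at least 2-fold lower, beside 2.61%.

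In SSPC-1-like cells 1 of 34 members was at least 2-fold higher in the Piezo1 fl/fl library (P4ha3, 41.4 against 16.3 CPM, log2 1.35 [0.84, 1.87]), beside 2.34% of 10336 genes, and 1 at least 2-fold lower (Adamts3, 19.3 against 49.1 CPM, log2 -1.35 [-1.85, -0.87]), beside 4.75%. In tendon-like cells 1 of 35 was at least 2-fold higher (P4ha3, 58.2 against 17.7 CPM, log2 1.72 [1.17, 2.31]), beside 2.95% of 9707 genes, and 3 at least 2-fold lower (Pcolce2, Adamts3 and Loxl4), beside 3.85%. P4ha3 was thus the member at least 2-fold higher in both types. P4ha3 had an interval above 0 in 6 of the 7 types in which it was compared, the exception being SSPC-2-like cells at 179 and 179.8 CPM.

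In the fibroblast and lining types the members past 2-fold between genotypes differed in number. On the higher side their share was 5.88% in Gdf10 fibroblast-like and 12.1% in lining-like cells, above that of all genes, and 0% in Pi16 fibroblast-like cells. At least 2-fold higher in the Piezo1 fl/fl library were 0 of 34 members in Pi16 fibroblast-like cells, beside 1.51% of 10931 genes, 2 of 34 (P4ha3 and Ppib) in Gdf10 fibroblast-like cells, beside 2.21% of 9919, and 4 of 33 (P4ha3, Fkbp11, Plod2 and Tmem38b) in Prg4 and Htra4 lining-like cells, beside 4.14% of 8971. At least 2-fold lower were 1 (Tll1), beside 2.61%, 1 (Adamts3), beside 2.78%, and 0, beside 3.11%. The median log2 ratio of the members was 0.30 in Pi16 fibroblast-like cells, beside -0.07 over all genes, 0.20 in Gdf10 fibroblast-like cells, beside -0.03, and 0.32 in lining-like cells, beside 0.05. Serpinh1 had 2178 against 1492 CPM in Pi16 fibroblast-like cells (log2 0.55 [0.50, 0.59]), 2616 against 1739 in Gdf10 fibroblast-like cells (log2 0.59 [0.53, 0.65]) and 2146 against 1342 in lining-like cells (log2 0.68 [0.58, 0.77]). In endothelial-like and mural-like cells its interval held 0. Plod2 was higher in the fibroblast and lining types, at 208 against 115 CPM in Pi16 fibroblast-like and 516 against 229 CPM in lining-like cells. In endothelial-like cells Plod2 was instead the 1 of 24 members at least 2-fold lower (log2 -1.03), beside 3.6% of 7186 genes. There 2 members were at least 2-fold higher (P3h3 and Tmem38b), beside 4.38%. Col1a1 had 19688 against 12266 CPM in Pi16 fibroblast-like cells. Crtap was above 0 in 10 of 10 types compared, with the interval above 0 in 7, and Ppib in 10 of 10, with the interval above 0 in 4. Other members were more often lower: the interval of Mia3 lay below 0 in 5 of 10 types, that of Creb3l1 in 2 of 10, that of Tll1 in 3 of 5 and that of Adamts3 in 3 of 4, and above 0 in none of the types compared.

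Related genes outside the list gave a comparison between SSPC-2-like and SSPC-1-like cells. Of 15 general chaperones of the endoplasmic reticulum 0 were at least 2-fold higher or lower in either library, with medians of -0.18 in control and -0.16 in Piezo1 fl/fl cells, beside -0.24 and -0.05 over all genes. Serpinh1 did not pass 2-fold either. Dnajc3 had 324 and 611 CPM in the control library and 416 and 651 in the Piezo1 fl/fl library, Dnajb9 128 and 206, and 154 and 205, and Hspa5 1565 and 2143, and 1832 and 2845. COPII genes were level, with 0 of 13 past 2-fold and medians of -0.02 and 0.08. Sar1b had log2 ratios of 0.37 and 0.05, Sec13 0.14 and 0.27, and Mia2 -0.09 and 0.30. Genes of collagen glycosylation, copper and ascorbate supply had medians of 0.39 and 0.18 over 6 compared genes, with Slc31a1, a copper importer, at 0.74 and 0.62, Furin at 0.71 and 0.16, and Slc23a2, an ascorbate transporter, at -0.65 and -0.59.

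Among 9 FKBP and cyclophilin relatives, with medians of -0.21 and -0.30, Ppic was at least 2-fold higher in both libraries, with 1109 and 191 CPM in control and 931 and 219 in Piezo1 fl/fl cells. Its level was well above that counted for the member Ppib, whose exons overlap Snx22 on the other strand. Whether tags of Ppib were lost to that overlap was not tested. Fkbp5, a cochaperone of steroid receptors, had 43.9 and 156 CPM in control cells, at least 2-fold lower, and 129 and 162 in Piezo1 fl/fl cells, while Fkbp1a had log2 ratios of 0.54 and 0.36. Of the osteogenesis imperfecta genes outside the list, 3 of 10 compared were at least 2-fold higher and 1 lower in the control library, and 1 of 10 higher and 0 lower in the Piezo1 fl/fl library. These genes include Col1a1 and Col1a2, which are counted again among the fibrillar collagens. Col1a1 was among the higher ones in the control library (log2 1.26) but not in the Piezo1 fl/fl library (log2 0.93). Sp7 had 195 and 14.2 CPM, and 127 and 3.22, whereas Serpinf1 had 1137 and 2606 CPM, and 1427 and 2434. The fibrillar collagens differed most among these lists, with medians of 1.53 and 1.15 with 6 of 8 genes at least 2-fold higher and 0 lower in control and 5 higher and 1 lower in Piezo1 fl/fl cells: Col11a1 had log2 ratios of 2.88 and 1.23, Col3a1 2.30 and 1.58, and Col5a1, at 3885 and 913 CPM in control and 2983 and 1055 in Piezo1 fl/fl cells, differed in the same direction. The medians of the members, 0.13 and 0.08, lay under those of the collagens. They also lay under those of the osteogenesis imperfecta genes (0.28 and 0.23) and of the glycosylation, copper and ascorbate genes (0.39 and 0.18). They lay above those of the ER chaperones and of the FKBP and cyclophilin relatives. COPII genes had -0.02 and 0.08, the latter level with the members.

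Some members lie close to other genes, which matters because strand handling of the counts is not given in the sources used here. By the GRCm38 annotation P3h4 and Fkbp10 are neighbors on chromosome 11, on opposite strands. Exons of Ppib overlap Snx22, of Plod3 Znhit1, of Fkbp10 Nt5c3b, of Fkbp14 Plekha8, of Loxl3 Htra2, of Loxl2 Gm27177, of Sec23a Gm17529, of P3h2 Gm4524, of Lox AC161119.1 and of Pcolce Gm36266, each on the other strand, and exons of Pcolce overlap Fbxo24 on the same strand. These are the overlaps with genes listed in the counts. Tags from such an overlap could have been given to either gene, and the split was not tested.

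RefSeq promoter windows of 250 bases were at hand for 25 of the 36 members. The core ACGTG, searched on both strands, was in 11 of 25 member promoters (44.0%), beside 18.5% of 27025 promoters in all and 24.8% of the 10672 genes detected. CCAAT was in 9 of 25 (36.0%), beside 37.5% and 40.3%, GGGCGG in 19 of 25 (76.0%), beside 35.4% and 62.7%, and the ER stress element, a CCAAT followed after 9 bases by CCACG, in 0, beside 0.13% and 0.141%. The windows of Serpinh1 and of the prolyl 4-hydroxylase subunits that parted by cell type are shown, 5′ to 3′ along the gene, with ACGTG on either strand in capitals; CCAAT was in none of the 4, and a match is a description of letters. They are from GRCm38.p6: Serpinh1 chr7:99353240-99353489 on the minus strand, P4ha1 chr10:59323046-59323295, P4ha2 chr11:54100674-54100923 and P4ha3 chr7:100285270-100285519 on the plus strand. P4ha3 held no match. By the gene positions used above, the P4ha2 window lies inside the gene, which starts at chr11:54100095. The windows of Serpinh1, P4ha1 and P4ha3 end next to the gene start.
Serpinh1: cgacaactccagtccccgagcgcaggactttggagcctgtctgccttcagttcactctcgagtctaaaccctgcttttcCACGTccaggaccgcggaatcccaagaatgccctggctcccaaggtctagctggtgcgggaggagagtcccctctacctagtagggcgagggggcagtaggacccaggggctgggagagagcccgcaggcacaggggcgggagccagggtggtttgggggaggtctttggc
P4ha1: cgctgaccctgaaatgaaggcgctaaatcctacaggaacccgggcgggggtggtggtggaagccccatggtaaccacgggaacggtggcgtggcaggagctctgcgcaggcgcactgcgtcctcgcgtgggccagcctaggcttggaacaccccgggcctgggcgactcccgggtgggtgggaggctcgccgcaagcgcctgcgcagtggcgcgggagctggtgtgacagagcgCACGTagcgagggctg
P4ha2: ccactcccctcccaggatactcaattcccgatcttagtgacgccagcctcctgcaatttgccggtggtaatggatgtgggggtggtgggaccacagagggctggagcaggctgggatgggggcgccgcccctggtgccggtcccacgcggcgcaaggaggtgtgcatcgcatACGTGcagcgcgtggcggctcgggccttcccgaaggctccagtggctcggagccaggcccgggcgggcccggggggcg
P4ha3: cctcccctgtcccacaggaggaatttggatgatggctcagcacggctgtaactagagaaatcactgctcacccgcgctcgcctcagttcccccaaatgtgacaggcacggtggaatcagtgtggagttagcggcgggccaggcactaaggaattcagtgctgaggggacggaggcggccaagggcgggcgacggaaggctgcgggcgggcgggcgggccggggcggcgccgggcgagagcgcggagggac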

How the data were processed

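The UMI counts of 2 libraries of sorted periosteal cells, 1 per genotype, were read as the authors deposited them, as a matrix of genes by cell barcodes. The submitters' processing notes name fastp, UMI-tools, STAR and Seurat 4.0.3. The genome build, the annotation and strand handling are not given in the sources used here. No paired analysis was possible because each genotype had 1 library.

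A cell was retained if it had 1000 to 5000 genes and a mitochondrial share of UMIs below 25%, and doublets called by Scrublet in scanpy 1.11.5 (expected rate 0.05, barcodes with at least 500 genes) were removed: 46 for control and 67 for Piezo1 fl/fl, of which 37 and 57 had passed the other filters. Types were set cell by cell from marker counts, and types with under 20 cells were left out. UMIs were summed per type and divided by the type total. Pairs with at least 20 UMIs over both sides were compared, with 0.5 UMI added to each side for calls of 2-fold and medians; printed ratios with intervals have none added. Intervals are exact Poisson for levels, exact conditional for ratios and Clopper-Pearson for shares (scipy 1.17.1), and a count of 0 was read against 3 counts. Other tools were numpy 2.4.6, pandas 2.3.3 and matplotlib 3.10.9.

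The members, markers and gene lists were chosen with earlier results of these data known. Members with at least 50 CPM in control SSPC-1-like, SSPC-2-like or osteoblast-like cells are given in sentences, the others by range and counts; in each role the members with the largest and smallest ratio between SSPC-2-like and SSPC-1-like cells are named, and from each other gene list the 3 genes with the largest absolute ratio among those with at least 50 CPM on the higher side.

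The alternatives were 500 to 6000 genes per cell, mitochondrial UMIs under 10%, doublets kept, types from Louvain clusters (Seurat 5.3.0 in R 4.3.3, resolution 0.4, 2000 features, 20 components, without members and collagens), a larger margin of 0.5 between types, a type total without collagens, cells thinned to 2500 UMIs, and at least 100 UMIs per pair. A correlation within types of at least 10000 CPM of Col1a1 was added after seeing the data.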

Additional observations from a re-analysis of the deposited data

Results flagged for a closer look

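In 3 of 34 members compared in both libraries, Pcolce2, Adamts2 and Loxl1, beside 1.22% of 9657 genes, the interval of the log2 ratio between SSPC-2-like and SSPC-1-like cells lay on one side of 0 in the control library and on the other in the Piezo1 fl/fl library. The difference between the libraries was not tested in any of them. Pcolce2 had -1.76 [-2.24, -1.29] in control cells and 0.53 [0.00, 1.05] in those of the Piezo1 fl/fl library, where 57.1% of the SSPC-2-like UMIs came from 5 cells. Adamts2 had -0.69 [-0.81, -0.58] and 0.21 [0.07, 0.35], with UMIs in 379 of 501 control and 214 of 270 Piezo1 fl/fl SSPC-2-like cells. Loxl1 had -0.27 [-0.40, -0.14] and 0.18 [0.02, 0.34]. Adamts2 and Loxl1 kept these signs under each of the 8 other settings in both libraries, although Loxl1 came near 0 in the Piezo1 fl/fl library with Louvain types (0.02) and in the control library without collagens in the total (-0.05), whereas Pcolce2 turned negative in the Piezo1 fl/fl library with Louvain types and with the larger margin.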

How the results depend on the processing

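Over the 7 main results there were 55 values under an alternative: 8 changed sign or went past the tolerance of 1.5-fold for a count and 0.1 on the log2 scale for a median, and 47 did neither, though medians near 0 can differ several-fold within it. Under the 8 alternatives the count of members at least 2-fold higher stayed between 6 and 9 in SSPC-2-like over SSPC-1-like cells and between 6 and 10 in osteoblast-like over SSPC-1-like cells, and the count with rho of at least 0.7 between 14 and 20. The count of members at least 2-fold apart between genotypes in SSPC-2-like cells, 3, stayed between 2 and 3, but with Louvain types Pcolce2 counted as lower (-1.50) in place of higher (1.36). Without collagens in the total, the median for SSPC-2-like over SSPC-1-like cells went from 0.13 to 0.35 and that for osteoblast-like over SSPC-1-like cells from -0.0048 to 0.348, as a smaller total raises every ratio in collagen-rich cells. The osteoblast-like median also changed sign with mitochondrial UMIs under 10% (0.027) and with the larger margin (0.0016), and was -0.11 after thinning; the cause was not tested. The genotype median in SSPC-2-like cells, -0.0062, became 0.018 with mitochondrial UMIs under 10% and 0.0075 after thinning; the cause was not tested. Without collagens in the total it was -0.0968 and with Louvain types -0.033, the sign unchanged. With the larger margin the control median for SSPC-2-like over SSPC-1-like cells was 0.0518. In the Piezo1 fl/fl library the median for SSPC-2-like over SSPC-1-like cells went from 0.078 to -0.013 with Louvain types, to 0.213 without collagens and to 0.209 after thinning; the cause was not tested. Within types of at least 10000 CPM of Col1a1, an alternative chosen after seeing the data, the count with rho of at least 0.7 went from 16 to 8, with 8 types in place of 12.

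Louvain clusters gave no osteoblast-like type, so that alternative has no value for osteoblast-like cells. The osteoblast-like values rest on 33 cells.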
